A study of Mus musculus with 12 samples.

Results

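The transcription factors that set up the heart and its chambers were examined in hearts of mice whose fathers had, or had not, suffered a cardiac injury. The 10 genes, chosen by symbol with earlier results of these data known, were Gata4, Gata6, Nkx2-5, Tbx5, Tbx20, Hand1, Hand2, Hey2, Irx4 and Meis1. All 10 were found among the 78317 genes of the deposited count table, and 9 of them, all but Hand1, had enough counts to be tested. The table held bulk RNA-seq counts of heart ventricle from 12 mice: 6 offspring of males that received a cardiac cryoinjury on postnatal day 1 (injured-sire hearts) and 6 offspring of uninjured males (uninjured-sire hearts). All animals, sires included, were of the C57BL/6J strain, the offspring hearts themselves were not injured, and no transgene or mutation is named in the labels. Hearts were labelled as collected at 3 wpp, and the same label calls the offspring adult. Both sexes were used, 3 males with 3 females among injured-sire hearts and 4 males with 2 females among uninjured-sire hearts, but the labels do not tie a sex, a sire or a litter to any library. The p-values below therefore cover variation among these hearts alone, and littermates among them would make the p-values too small. The injured-sire library with replicate number 16, which the labels name as an outlier left out by the submitters, was kept out of the comparison, and its values are given beside the others. The sex totals above include replicate 16, so they do not describe the libraries compared. Xist, the RNA of the inactive X chromosome in females, was at 293 to 380 CPM in injured-sire replicates 12, 15 and 17. In uninjured-sire replicates 19 and 21 it was at 373 and 301 CPM. All other libraries had at most 3.63 CPM, the value of replicate 16. The main fit held no sex term.

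The core of this network is formed by GATA zinc-finger, NK2 homeobox and T-box factors that bind to each other and to shared enhancers of contractile and natriuretic peptide genes. HAND factors pattern the embryonic ventricles, and Hey2 and Irx4 keep ventricular identity apart from that of the atria. Meis1 is a homeobox factor that in mouse cardiomyocytes promotes withdrawal from the cell cycle after birth. Most of these genes stay active in the adult heart, and several are also used outside muscle: Gata4 and Tbx20 in cardiac fibroblasts, Gata6 and Tbx5 in lung mesenchyme or epithelium, and Hand2 in sympathetic neurons.

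The promoters of 6 of the 10 members (Nkx2-5, Tbx20, Hand2, Hey2, Irx4 and Meis1) were present in a RefSeq promoter table on GRCm38.p6, and 3 are shown. They are those of Hand2, whose level varied most between animals, and of Tbx20 and Meis1, the most correlated of the 36 pairs of tested members. Each is the 250 bases before a RefSeq start, read 5′ to 3′ on the gene's strand, from chr8:57320733-57320982 (plus strand, Hand2), chr9:24774304-24774553 (minus strand, Tbx20) and chr11:19018970-19019219 (minus strand, Meis1). In the GENCODE M21 annotation of the same build, the starts of Hand2 and Tbx20 are those of RefSeq, Meis1 starts 16 bp further upstream, so that its window ends with 16 exonic bases, and the Hand2 window lies within exons of Hand2os1 on the opposite strand. These starts were not compared with the GRCm39 gene models used for counting. Capitals mark words that factors of these families bind, searched on both strands: AGATAA or AGATAG and also TGATAA or TGATAG for GATA factors, TNAAGTG for NK2 factors, AGGTGT for T-box factors, CATCTG for HAND factors and TGACAG for MEIS factors.
Hand2: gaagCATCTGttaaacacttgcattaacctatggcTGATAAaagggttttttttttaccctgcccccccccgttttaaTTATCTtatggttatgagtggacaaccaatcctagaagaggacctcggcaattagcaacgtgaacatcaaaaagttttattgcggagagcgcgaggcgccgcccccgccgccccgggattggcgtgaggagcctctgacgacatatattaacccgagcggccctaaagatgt
Tbx20: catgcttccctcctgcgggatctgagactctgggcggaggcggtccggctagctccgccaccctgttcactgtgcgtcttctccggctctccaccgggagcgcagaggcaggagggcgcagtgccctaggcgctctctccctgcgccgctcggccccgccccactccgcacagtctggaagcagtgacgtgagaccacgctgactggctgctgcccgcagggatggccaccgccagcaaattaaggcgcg
Meis1: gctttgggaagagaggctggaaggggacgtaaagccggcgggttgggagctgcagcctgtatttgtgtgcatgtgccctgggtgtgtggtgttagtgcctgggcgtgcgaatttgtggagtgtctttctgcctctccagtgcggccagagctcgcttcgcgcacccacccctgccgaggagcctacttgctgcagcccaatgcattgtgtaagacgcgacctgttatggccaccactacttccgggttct
The Hand2 window held 2 GATA words, starting at positions -215 and -172 from the RefSeq start, and 1 HAND word at -246. A GATA word was present in 26.5% of 32851 promoter windows of this length in the table and a HAND word in 14.4%. The Nkx2-5 window, not shown, held 1 MEIS word at -19, a word found in 15.9% of all windows. That window lies inside the GENCODE gene, which starts 3444 bp upstream of the RefSeq start, and 43 of its bases are exonic. No word of the 5 kinds lay in the windows of Tbx20, Hey2, Irx4 and Meis1, and the NK2 and T-box words, present in 10.1% and 11.8% of all windows, lay in none of the 6. These matches describe letters only.

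In the comparison of 5 injured-sire with 6 uninjured-sire hearts, none of the 9 tested members passed the threshold of an adjusted p below 0.05, in a table where 0.105% of 17130 genes did, 0.0525% higher and 0.0525% lower in injured-sire hearts (edgeR quasi-likelihood test with Benjamini-Hochberg adjustment over all genes). DESeq2, which called 0.905% of 14804 genes, and limma voom also called 0 of the 9. At an unadjusted p below 0.05, which 8.96% of all genes reached, stood 2 members, Gata4 and Tbx5, in edgeR as in both other tools. The fitted difference was positive for 6 members and negative for 3, with a median of 0.04 on the log2 scale, against 0.0002 over all genes tested. Half-widths of the members' 95% confidence intervals had a median of 0.136. The 9 genes called higher and 9 called lower in the whole table became 17 and 8 without a scaling factor, 7 and 12 with upper-quartile factors and 10 and 9 with DESeq2 size factors.

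**Figure D1:**
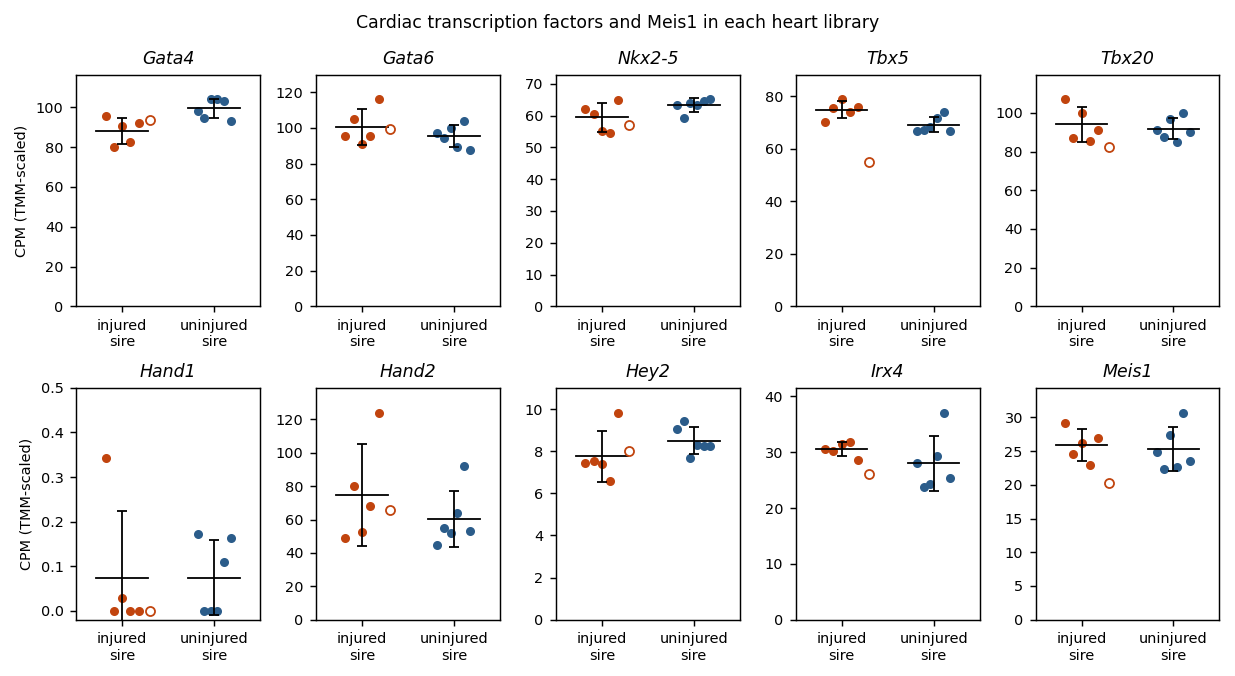
TMM-scaled CPM (counts per 1e+06 counts in tested genes; y axis from 0, drawn slightly below 0 for Hand1) of each member in every library, with injured-sire hearts left and uninjured-sire hearts right. Filled points are the 5 and 6 libraries compared, lines and bars their mean and SD, and the open point is replicate 16; the groups overlap in all 10 panels, and Hand2 has the widest spread.

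Libraries held 30537315 to 42090257 counts. Myl2, the ventricular myosin light chain, was at 6180 to 7480 TPM (counts per exon base, scaled to a common total) in the 5 injured-sire and 6340 to 6970 in the 6 uninjured-sire libraries. Myl7, the atrial light chain, was also present, at 2590 to 3010 TPM in injured-sire and 2120 to 3010 TPM in uninjured-sire libraries. The 9 airway and alveolar genes examined summed to 34.5 to 475 CPM in the injured-sire and 1.31 to 293 CPM in the uninjured-sire libraries, with 2.28 CPM in replicate 16. Scgb1a1, the club cell gene, had 18.4 to 253 CPM in injured-sire and 0.193 to 160 CPM in uninjured-sire libraries. The 8 fat markers summed to 175 to 550 CPM in injured-sire and 48.8 to 429 CPM in uninjured-sire libraries. Th, the catecholamine synthesis enzyme of sympathetic nerves, reached at most 30 counts in any library.

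Per length, the members spanned a wide range of levels. TPM was computed here from the counts and the counted exon length of each gene, which includes the exons of all annotated isoforms and is long for Tbx20 (11997 bases) and Meis1 (10532 bases). Nkx2-5 was highest, at 93.6 ± 6.55 TPM (SD, n = 5) in injured-sire and 96.3 ± 5.36 TPM (SD, n = 6) in uninjured-sire hearts. It was followed by Hand2 and Gata4, which lay at 85.9 ± 34.5 and 61.2 ± 4.82 TPM in injured-sire hearts, and at 67.2 ± 20.4 and 66.6 ± 4.80 TPM in uninjured-sire hearts. Hand2 and Gata4 did not separate: Hand2 was the higher of the pair in 5 of 11 libraries. Nkx2-5 exceeded Hand2 in 9 of 11.

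Tbx5 and Gata6 came next and could not be told apart either, with Tbx5 higher in 6 of 11 libraries and means over the 11 libraries of 40.9 and 39.9 TPM. Below them, every step of the order held in 11 of 11 libraries: Irx4 averaged 29.8 TPM, Tbx20 20.6, Meis1 6.46 and Hey2 4.71. Hand1 was at the bottom with a mean of 0.0976 TPM.

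**Figure D2:**
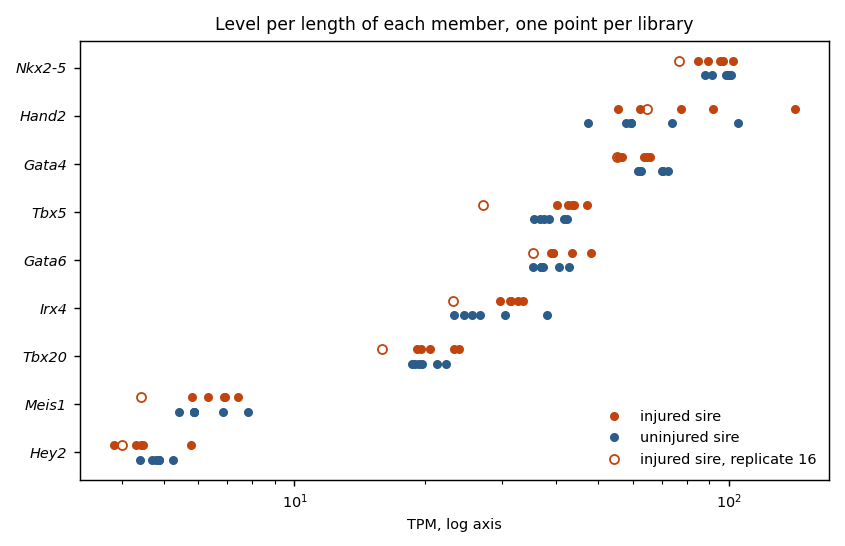
Level per length (TPM, log axis) of 9 members, ordered by mean, with 1 point per library, injured-sire hearts above uninjured-sire hearts and replicate 16 as an open point. Hand1, with 0 counts in 7 of the 12 libraries, is not drawn; Nkx2-5 leads and Hey2 is lowest, and Hand2 spans from 47.4 to 142 TPM.

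Gata4 and Gata6 are zinc-finger factors that open and activate cardiac enhancers and can partly stand in for each other. Gata4 (ENSMUSG00000021944, GRCm39 chromosome 14, 63436371 to 63509141, minus strand) had the smallest p of the members. Its CPM in the injured-sire hearts were 95.8, 80.3, 90.7, 82.4 and 92.1, against 98.3, 94.6, 104, 104, 103 and 93.1 in the uninjured-sire hearts. All 5 injured-sire values were below the uninjured-sire mean, though the highest of them, in replicate 12, was above the lowest 2 uninjured-sire values. Means were 88.3 ± 6.62 CPM in injured-sire and 99.4 ± 4.78 CPM in uninjured-sire hearts (SD, n = 5 and 6). On the log2 scale the difference was -0.17 ± 0.0585 (SE; 95% interval -0.29 to -0.05; edgeR adjusted p = 0.328), and Gata4 ranked 396 of 17130 genes by p. Over all alternatives it stayed between -0.21 and -0.14, with adjusted p from 0.192 to 0.594, and replicate 16 had 93.6 CPM. In bulk tissue, fewer cells that express a gene and less RNA per cell cannot be told apart.

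Gata6 (ENSMUSG00000005836, GRCm39 chromosome 18, 11052064 to 11085635, plus strand) was similar in both groups. It had 95.7, 105, 90.9, 95.5 and 116 CPM in the injured-sire hearts, against 87.7 to 104 CPM with a median of 95.7 in the uninjured-sire hearts. The fitted difference was 0.08 ± 0.0656 on the log2 scale (95% interval -0.06 to 0.21; edgeR adjusted p = 0.802). Without replicate 17 it was 0.02 (edgeR adjusted p = 0.958; 0.604 to 0.981 over all alternatives). The highest value, 116 CPM, was in replicate 17, the animal that also had the highest Hand2 level. The longest run of bases shared by any transcript of Gata4 and any of Gata6 was 18, and multi-mapping reads were left out of the counts.

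Nkx2-5, the NK2 homeobox factor needed for looping of the heart tube and for conduction cells (ENSMUSG00000015579, chromosome 17, 27057638 to 27063983, minus strand), was one of the steadiest members. It had 62.1, 60.6, 55.1, 54.5 and 64.8 CPM in injured-sire hearts, against 59.3 to 65.1 CPM with a median of 63.7 in uninjured-sire hearts. Its log2 fold change was -0.09 ± 0.0586 (95% interval -0.21 to 0.03; edgeR adjusted p = 0.701). Replicates 14 and 15 of the injured-sire group were the only 2 of the 11 libraries compared to lie below the lowest uninjured-sire value.

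Tbx5, the T-box factor mutated in Holt-Oram syndrome in humans and a partner of Gata4 and Nkx2-5 (ENSMUSG00000018263, chromosome 5, 119970733 to 120023284, plus strand), differed in the direction opposite to Gata4. It had 70.1, 75.6, 78.9, 74.1 and 76.1 CPM in injured-sire hearts, against 67.0, 67.3, 68.5, 71.8, 74.0 and 67.0 CPM in uninjured-sire hearts. All 5 injured-sire values were above the uninjured-sire mean of 69.3 ± 2.96 CPM (SD, n = 6), and their own mean was 75.0 ± 3.20 CPM (SD, n = 5). Tbx5 thus had a log2 fold change of 0.11 ± 0.0537 (95% interval 0.00 to 0.23; edgeR adjusted p = 0.545) and ranked 1441 by p. Replicate 16, at 55.0 CPM, was the lowest of all 12 libraries, and with it in the fit the difference was 0.05 (edgeR adjusted p = 0.922; 0.421 to 0.922 over all alternatives).

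Tbx5 is more active in atria than in ventricles of mice, and atrial genes are therefore given beside it. Of the 8 atrial markers, 7 were higher in injured-sire hearts, their median was 0.06 on the log2 scale, and Bmp10, an atrial growth factor, passed the test. Bmp10 averaged 287 ± 14.2 CPM in injured-sire and 235 ± 13.5 CPM in uninjured-sire hearts (SD, n = 5 and 6), with 167 CPM in replicate 16. The 8 atrial markers summed to 3780 to 4350 CPM in injured-sire, 3510 to 4150 CPM in uninjured-sire libraries and 3430 CPM in replicate 16, and none of them was at 0 in all libraries. Their part in the Tbx5 values was not tested. With lung and fat marker scores as covariates, Tbx5 differed by 0.10, Gata4 by -0.16 and Gata6 by 0.14 on the log2 scale, with edgeR adjusted p of 0.683, 0.461 and 0.604 in that order.

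Because Gata4 and Tbx5 lay on opposite sides, their ratio within each library, which no scaling affects, was computed after both had been seen. Tbx5 counts per Gata4 count were 0.732, 0.942, 0.870, 0.899 and 0.826 in injured-sire hearts, against 0.682, 0.711, 0.660, 0.691, 0.720 and 0.719 in uninjured-sire hearts. The groups did not overlap, but the pair was chosen with both genes' values known and no test was made. Among single genes, 1.06% of those tested had groups that did not overlap, and none of the 9 tested members did. Replicate 16 had a ratio of 0.587, below every other library, so with it the groups overlap. Of the other ratios computed, only 1010001N08Rik to Gata6, given below, also had groups that did not overlap. The groups overlapped for Gata6 to Gata4, Nkx2-5 to Tbx5, Hand2os1 to Hand2, Gm43050 to Tbx5 and Gm49390 to Gata4. The share of all gene pairs whose ratio does not overlap was not computed.

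Tbx20, a T-box factor that maintains adult cardiomyocytes (ENSMUSG00000031965, chromosome 9, 24629434 to 24685599, minus strand), showed almost the same level in both groups. It had 107, 86.9, 100, 85.5 and 91.1 CPM in injured-sire hearts, against 85.2 to 99.9 CPM with a median of 90.7 in uninjured-sire hearts. The fitted log2 difference was 0.04 ± 0.0646 (95% interval -0.10 to 0.17; edgeR adjusted p = 0.926). Replicate 16 was again the lowest library, at 82.5 CPM.

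Hand1 and Hand2 are basic helix-loop-helix factors of the embryonic left and right ventricle. Hand1 (ENSMUSG00000037335, chromosome 11, 57719531 to 57723644, minus strand) was close to undetected. It had 13, 0, 1, 0 and 0 counts in the injured-sire hearts compared and 0 in replicate 16, against 6, 0, 0, 0, 4 and 5 counts in the uninjured-sire hearts. A count of 0 allows up to 3 counts, or 0.0716 to 0.098 CPM at these depths, so no difference was detectable. These limits cover counting error only.

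Hand2 (ENSMUSG00000038193, chromosome 8, 57774018 to 57777668, plus strand) was the member that varied most between animals. It had 48.7, 80.0, 52.6, 68.1 and 124 CPM in injured-sire hearts, against 44.9, 54.8, 51.7, 64.0, 92.2 and 53.2 CPM in uninjured-sire hearts. The highest values of both groups, in injured-sire replicate 17 and uninjured-sire replicate 22, stood well above the rest of their groups, and the groups overlapped widely. Its log2 fold change was 0.31 ± 0.278 (95% interval -0.32 to 0.94; edgeR adjusted p = 0.816). It was 0.05 without replicate 17 and 0.47 without replicate 22 (edgeR adjusted p = 0.972 and 0.67; 0.645 to 0.972 over all alternatives).

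Few genes spread as widely as Hand2. The SD of log2 CPM within groups was 0.449 for Hand2, larger than that of 98.5% of the 11054 genes with an average of at least 2 log2 CPM. For Tbx5 it was 0.061, with 2.87% of those genes below it, and for Nkx2-5 and Gata4 it was 0.081 and 0.089. The highest of the 11 libraries exceeded the lowest by 2.76-fold for Hand2 and by 1.18-fold to 1.56-fold for the other 8 tested members.

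Among 10551 named genes of that level, the one whose deviations from the group means were most like those of Hand2 was Fosl2, an AP-1 transcription factor subunit of the early response gene class (Pearson r = 0.96, Spearman rho = 0.95 over 11 libraries). Fosl2 had 42.8, 104, 59.5, 69.7 and 146 CPM in injured-sire hearts, against 38.3, 57.0, 36.5, 62.2, 109 and 47.0 CPM in uninjured-sire hearts. As for Hand2, replicate 17 was the highest library and replicate 22 the highest of its group. Without these 2 libraries r was 0.91. The next 2 genes were Brd2, a chromatin reader (r = 0.93), and Maff, a small Maf factor (r = 0.92).

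Fos itself, the founding AP-1 gene, did not share this order, with 30.5 CPM in replicate 17 and 38.9 CPM in replicate 22, against 78.5 CPM in replicate 19, its highest. For each of the other 8 tested members some gene among the 10551 reached an r of 0.89 to 0.95, so a value of this size is no finding by itself with 11 libraries. Replicate 16, which took no part in the choice of Fosl2, had 65.8 CPM of Hand2 and 75.1 CPM of Fosl2. With Fosl2 as a covariate, chosen after seeing the data, the fitted Hand2 difference was -0.07 (edgeR adjusted p = 0.871). Fosl2 was picked for its likeness to Hand2 in these same libraries. This fit therefore removes Hand2 variation by construction and cannot test the Hand2 difference.

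**Figure D3:**
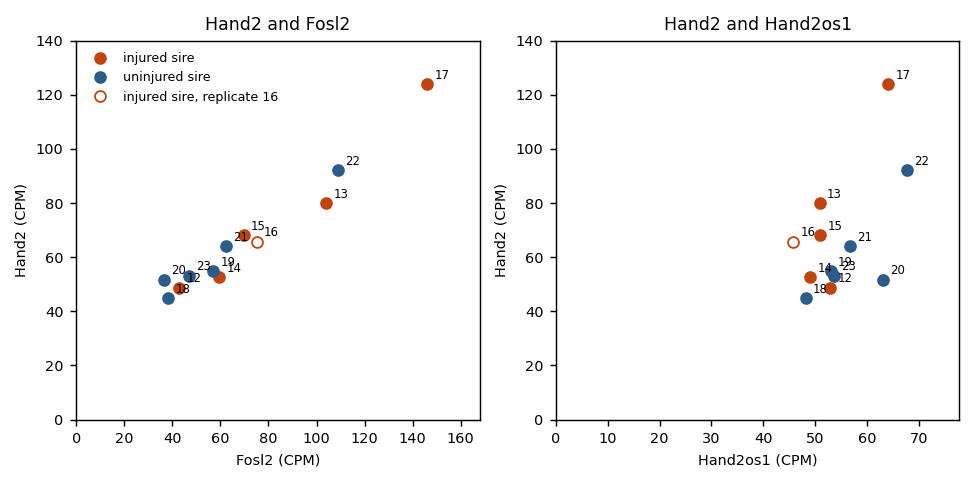
Hand2 (CPM, y axis) against Fosl2 (left, CPM) and against the antisense transcript Hand2os1 (right, CPM), 1 point per library with its replicate number, injured-sire orange, uninjured-sire blue and replicate 16 open. Replicate 17 is highest for both Hand2 and Fosl2, at 124 and 146 CPM, and replicate 18 has the lowest Hand2, at 44.9 CPM with 38.3 CPM of Fosl2.

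Hey2, a repressor that acts downstream of Notch and holds back atrial genes in the compact ventricle (ENSMUSG00000019789, chromosome 10, 30708355 to 30718797, minus strand), was the least abundant of the tested members. It had 7.43, 7.54, 7.41, 6.58 and 9.83 CPM in injured-sire hearts, against 7.68 to 9.45 CPM with a median of 8.26 in uninjured-sire hearts. In 4 of the 5 injured-sire hearts it lay below all 6 uninjured-sire values, and replicate 17 lay above them all. Hey2 differed by -0.13 ± 0.123 on the log2 scale (95% interval -0.38 to 0.13; edgeR adjusted p = 0.82), and by -0.23 without replicate 17 (edgeR adjusted p = 0.548; 0.548 to 0.927 over all alternatives).

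Of 12 genes of Notch signalling examined with Hey2, 5 were higher and 7 lower in injured-sire hearts and none was called (median log2 fold change -0.01). An unadjusted edgeR p below 0.05, which 8.96% of all genes reached, was found for 3 of them, all lower. Jag1, the ligand on the endothelium and on smooth muscle, averaged 17.9 ± 2.04 CPM in injured-sire and 22.8 ± 2.77 CPM in uninjured-sire hearts (log2 fold change -0.35 ± 0.0956, edgeR adjusted p = 0.189). Dll4, the arterial endothelial ligand, averaged 23.5 ± 2.66 CPM in injured-sire and 28.2 ± 2.99 CPM in uninjured-sire hearts (log2 fold change -0.26 ± 0.0876, edgeR adjusted p = 0.319). The 8 endothelial markers summed to 1260 to 1450 CPM in injured-sire and 1290 to 1380 CPM in uninjured-sire libraries. Only Vwf among them had an unadjusted p below 0.05, and it was higher (0.29 ± 0.0669 on the log2 scale, edgeR adjusted p = 0.101).

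Irx4, the Iroquois homeobox factor restricted to ventricular myocardium (ENSMUSG00000021604, chromosome 13, 73408598 to 73417727, plus strand), had a narrow range in one group and a wide one in the other. It had 30.6, 30.3, 31.5, 31.8 and 28.7 CPM in injured-sire hearts, against 28.1, 23.8, 24.3, 29.3, 37.1 and 25.4 CPM in uninjured-sire hearts. All 5 injured-sire values were above the uninjured-sire mean of 28 ± 4.95 CPM (SD, n = 6), and replicate 22 of the uninjured-sire group exceeded them all. Irx4 had a log2 fold change of 0.13 ± 0.0944 (95% interval -0.07 to 0.32; edgeR adjusted p = 0.761), and of 0.22 without replicate 22 (edgeR adjusted p = 0.318; 0.318 to 0.941 over all alternatives). Replicate 16 had 26.1 CPM. Of 7 genes taken as ventricular markers, 2 were higher and 5 lower in injured-sire hearts, and none was called. Hrc, a calcium-binding protein of the sarcoplasmic reticulum, averaged 831 ± 52 CPM in injured-sire and 916 ± 45.3 CPM in uninjured-sire hearts (log2 fold change -0.14, edgeR adjusted p = 0.392). Myh6, the adult mouse myosin heavy chain, differed by 0.11 (edgeR adjusted p = 0.623). It is counted in this list, though it does not tell ventricle from atrium.

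Meis1 (ENSMUSG00000020160, chromosome 11, 18829817 to 18968985, minus strand) had overlapping groups with nearly equal means. It had 29.1, 24.6, 26.2, 22.9 and 26.9 CPM in injured-sire hearts, against 22.3 to 30.7 CPM with a median of 24.2 in uninjured-sire hearts. Meis1 differed by 0.04 ± 0.0882 on the log2 scale (95% interval -0.15 to 0.22; edgeR adjusted p = 0.948), and replicate 16 was the lowest library at 20.3 CPM. Its longest run shared with the relatives Meis2 and Meis3 was 32 and 21 bases. Of its 9 tested relatives and partners of the TALE homeobox class, 7 were higher and 2 lower, none was called, and none had an unadjusted p below 0.05. Meis2 had a log2 fold change of 0.10 ± 0.0839 (edgeR adjusted p = 0.788). Hoxb13, a partner of Meis1 in the postnatal heart, had too few counts to be tested.

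Meis1 is known in mouse cardiomyocytes to activate inhibitors of cyclin-dependent kinases. Of 15 tested kinase inhibitors, pocket proteins and G1 regulators, 8 were higher and 7 lower with a median of 0 on the log2 scale, and none was called. Cdkn1b, the p27 inhibitor, had the smallest p, at 65 ± 2.7 CPM in injured-sire and 71.6 ± 4.71 CPM in uninjured-sire hearts (SD, n = 5 and 6; log2 fold change -0.14 ± 0.058, edgeR adjusted p = 0.455). Cdkn1c, the imprinted p57 inhibitor, differed by -0.10 (edgeR adjusted p = 0.771). These 2 inhibitors were named for their small p, not as targets of Meis1. Cdkn1a ranged from 56.3 to 181 CPM in injured-sire and from 57.7 to 141 CPM in uninjured-sire hearts, with a log2 fold change of 0.08 ± 0.332. Cdkn2b was low, at 0.132 to 0.878 CPM in injured-sire and 0.0897 to 0.947 CPM in uninjured-sire hearts. Cdkn2a had too few counts to be tested.

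**Figure D4:**
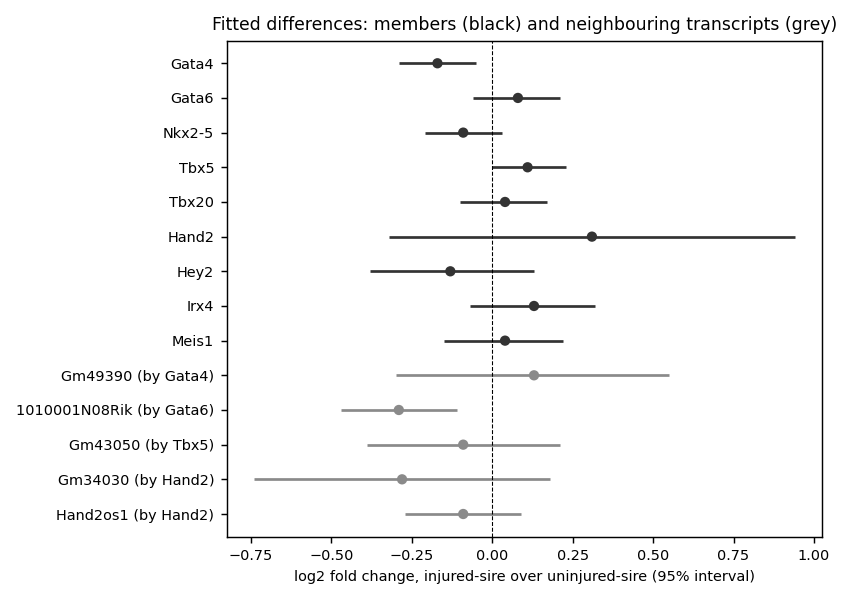
Fitted log2 fold change, injured-sire over uninjured-sire, with its 95% interval for the 9 tested members (black) and 5 transcripts that overlap or start near them (grey). Gata4 lies lowest among members at -0.17, Hand2 has the widest interval, and 1010001N08Rik beside Gata6 lies at -0.29.

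Of 35 other heart transcription factors tested, 21 were higher in injured-sire hearts and 14 lower, their median was 0.02 on the log2 scale, and none was called. Klf13, a Krüppel-like partner of Gata4, came closest, at 115 ± 12.2 CPM in injured-sire and 91.5 ± 8.92 CPM in uninjured-sire hearts (log2 fold change 0.32 ± 0.0737, edgeR adjusted p = 0.0909). Foxp1, a forkhead repressor, differed by -0.14 ± 0.066 (edgeR adjusted p = 0.525). Of 24 textbook targets of Gata4, Nkx2-5 and Tbx5, 12 were higher and 12 lower with a median of 0, and none was called. Gja1, the ventricular gap junction gene, was at 300 ± 18.5 CPM in injured-sire and 347 ± 46.3 CPM in uninjured-sire hearts (edgeR adjusted p = 0.399).

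Transcripts next to the members were also counted. In the table, 20 genes overlapped a member or started within 5 kb of its start, beside 9 of the 10 members, and 14 of them lay on the opposite strand. Reads were counted by strand, per the file header, so opposite transcripts are kept apart as far as the library was stranded. Of 12 tested neighbours 4 were higher and 8 lower, and none was called.

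The neighbour with the smallest p was 1010001N08Rik (ENSMUSG00000097222, GRCm39 chromosome 18, 10987944 to 11053256, minus strand), which starts 1192 bp inside Gata6 and runs away from it on the opposite strand. It had 20.3, 22.2, 17.2, 19.8 and 20.9 CPM in injured-sire hearts and 17 CPM in replicate 16, against 20.9, 23.8, 28.4, 26.3, 23 and 24.5 CPM in uninjured-sire hearts. All 5 injured-sire values were below the uninjured-sire mean, and the groups overlapped at the lowest uninjured-sire value, in replicate 18. The fitted difference was -0.29 ± 0.0866 on the log2 scale (95% interval -0.47 to -0.11; edgeR adjusted p = 0.248; rank 222 by p). It was -0.21 with the lung and fat scores as covariates (edgeR adjusted p = 0.55; 0.0693 to 0.55 over all alternatives). Per Gata6 count, its counts were 0.212, 0.212, 0.189, 0.207 and 0.18 in injured-sire hearts and 0.17 in replicate 16, against 0.216, 0.252, 0.283, 0.295, 0.221 and 0.279 in uninjured-sire hearts. This ratio was chosen after both genes had been seen and was not tested. Exons of the 2 genes overlap by 581 bases on opposite strands.

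Hand2os1, the long noncoding RNA transcribed opposite to Hand2 and known to tune its level in the mouse heart (ENSMUSG00000100510, chromosome 8, 57734152 to 57782056, minus strand), was abundant. It had 52.9, 50.9, 49.1, 51.0 and 64.1 CPM in injured-sire hearts, against 48.2, 53.0, 63.1, 56.7, 67.7 and 53.7 CPM in uninjured-sire hearts (log2 fold change -0.09 ± 0.0843, edgeR adjusted p = 0.819). Its range was much narrower than that of Hand2, and the ratio of Hand2os1 to Hand2 counts ran from 0.518 to 1.09 in injured-sire and from 0.734 to 1.22 in uninjured-sire hearts. Hand2 and Hand2os1 shared their highest animals, with an r of 0.76 over 11 libraries that was 0.22 without replicates 17 and 22, so the relation rests on those 2. Gm34030, also opposite to Hand2, averaged 2.5 CPM in injured-sire and 3.02 CPM in uninjured-sire hearts and differed by -0.28 (edgeR adjusted p = 0.778).

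Gm49390, opposite to Gata4 and starting 2518 bp inside it, had 9.77 to 21.4 CPM in injured-sire and 9.52 to 18.4 CPM in uninjured-sire hearts (log2 fold change 0.13, edgeR adjusted p = 0.914). Gm43050, which starts 193 bp inside Tbx5 and runs the other way, had 5.85 to 11.5 CPM in injured-sire and 8.26 to 11.1 CPM in uninjured-sire hearts (log2 fold change -0.09, edgeR adjusted p = 0.917). The other neighbours with at least 10 counts in some library were at most 1.76 CPM in any library compared. They were ENSMUSG00000135765 at Gata4, ENSMUSG00000127898 and ENSMUSG00000127936 at Nkx2-5, Gm29824 at Tbx20, ENSMUSG00000143733 at Irx4, and Gm37818, 2900018N21Rik, Gm16140 and Gm16141 at Meis1. ENSMUSG00000127936, on the strand of Nkx2-5, had too few counts to be tested, with 0, 4, 3, 0 and 0 counts in injured-sire hearts and 9 in replicate 16, against 7, 7, 8, 15, 15 and 4 counts in uninjured-sire hearts.

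**Figure D5:**
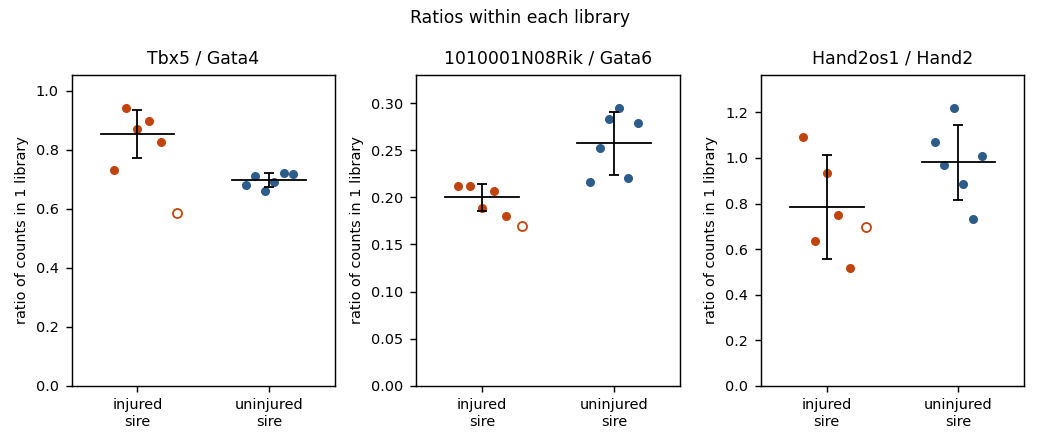
Ratio of the counts of 2 genes within each library (y axis from 0), injured-sire hearts left and uninjured-sire hearts right, with mean and SD of the 5 and 6 libraries compared and replicate 16 as an open point. The groups do not overlap for Tbx5 to Gata4 or for 1010001N08Rik to Gata6 among the 11 libraries, and replicate 16 lies below both groups in each of these 2 panels. They overlap for Hand2os1 to Hand2 and for the other ratios computed, which are not drawn.

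Over the 36 pairs of tested members, the correlation of deviations from the group means had a median r of 0.24 over 11 libraries. It ran from -0.27 to 0.85 and was positive for 30 pairs. The median r of other gene pairs was not computed. The highest among the members was that of Tbx20 and Meis1 (r = 0.85, rho = 0.85), which was 0.77 without replicates 22 and 12. Other genes were more like each of them, such as Nav3 for Tbx20 (r = 0.93) and Dhx37 for Meis1 (r = 0.89). As the highest of 36 pairs, the value for Tbx20 and Meis1 is no finding by itself. Gata6 and Hand2 reached 0.74, but 0.25 without replicates 17 and 22. These libraries share their scaling, and the values are descriptions over animals of 1 study.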

How the data were processed

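RNA was measured by bulk RNA-seq of snap-frozen ventricle in 12 libraries. The deposited table holds raw read counts per Ensembl gene, made by the authors with featureCounts 2.1.1, strand setting 2, with Ensembl 114 gene models for GRCm39 and without multi-mapping reads, per the file headers. STAR 2.7.10a and Subread 2.0.3 are listed in the submitters' processing notes. Another 11 sample columns belong to no sample used here and were not read. Symbols of GENCODE M21 matched 51487 of 78317 gene IDs, which took 99.3% of counts. The Length column, deposited by the authors, is another unit (bases of counted exons) and served for TPM.

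In R 4.3.3, edgeR 4.0.16 (filterByExpr with a minimum count of 10, TMM factors, robust quasi-likelihood F test, two-sided, Benjamini-Hochberg adjustment over 17130 genes, threshold 0.05) compared 5 injured-sire with 6 uninjured-sire libraries. CPM are counts per 1e+06 TMM-scaled counts in tested genes. A prior count of 2 was added for log2 CPM. TPM were computed over all genes of the table. Replicate 16 was scaled with them for display. Alternatives were all 12 libraries, each library left out, other scaling factors and filters, DESeq2 1.42.0, limma 3.58.1 (voom), an exact permutation of log2 CPM over 462 splits, and covariates from Xist, lung and fat markers and, added after seeing the data, Fosl2. The steps were tested on simulated counts. The members and lists were chosen with earlier results of these data known. Named genes were all members, neighbours with at least 10 counts in a library, list members past the threshold or else the 2 with the smallest p, and the 3 genes most like each member. A few genes that this rule names are not reported here. Vwf is one of these, and the values of Fos and the ratios were picked after the values were seen. Cdkn1a and Cdkn2b fall outside this rule and were also added after the values were seen. Sequences are from RefSeq on GRCm38.p6 and were not placed on GRCm39.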

Additional observations from a re-analysis of the deposited data

Results flagged for a closer look

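Of 42 sets of 5 or 6 values scanned, 3 held a library far from the others of its group, and chance alone would mark about 1 set in 20. Nkx2-5 was at 59.3 CPM in uninjured-sire replicate 19, against 63.2 to 65.1 CPM in the rest of that group. Hand1 was at 0.342 CPM in injured-sire replicate 12, from 13 counts, against 0 to 0.0277 CPM in the other 4 libraries compared. Hand2os1 was at 64.1 CPM in injured-sire replicate 17, against 49.1 to 52.9 CPM in the other 4, and the same library had the highest Hand2, Gata6, Hey2 and Nkx2-5 levels of its group.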

How the results depend on the processing

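No member was called under any of the 22 alternatives that give calls. The count of genes called in the whole table, 18, ranged from 8 to 43 when 1 library was left out (injured-sire replicates 12, 13 and 14 left out gave 28, 8 and 9, and uninjured-sire replicates 22 and 23 gave 43 and 9). It was 236 with no filter on low counts, 28 with at least 1 CPM in 5 libraries, 134 with the DESeq2 Wald test and 8 with Fosl2 as a covariate; the cause was not tested. Gata4, Gata6, Nkx2-5, Tbx5, Hey2, Irx4 and 1010001N08Rik kept their sign under all 23 alternatives. The sign turned for Tbx20 without injured-sire replicate 12 (-0.02; -0.02 to 0.07 with 1 library left out) and for Meis1 with all 12 libraries (-0.02) and without injured-sire replicate 12 (-0.01; -0.01 to 0.10 with 1 library left out). It also turned for Hand2 with Fosl2, the gene picked as most like it, as a covariate (-0.07), which is no check on Hand2. For Hand2os1 it turned with lung and fat scores as covariates (0.04). None of these values was called. The exact permutation of log2 CPM cannot go below p = 0.00216 and gave 0.013 for Gata4 and 0.0195 for Tbx5, or 0.399 and 0.421 adjusted over all genes. No paired analysis was possible because the groups share no replicate number. With 5 and 6 animals, a difference within the half-width of its printed interval did not reach an unadjusted p below 0.05. Larger differences could still miss the adjusted threshold, as did Gata4 with an interval of -0.29 to -0.05.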

Other observations

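Relatives of the members were active beside them. Irx3, an Iroquois factor of the ventricular conduction system, lay above Irx4, at 61.5 ± 8.09 TPM in injured-sire and 58.4 ± 6.87 TPM in uninjured-sire hearts (SD, n = 5 and 6). Both Hey1 (14.3 ± 2.5 TPM in injured-sire and 12.4 ± 2.63 TPM in uninjured-sire hearts) and Heyl (16.8 ± 1.61 TPM in injured-sire and 17.3 ± 2.63 TPM in uninjured-sire hearts) lay above Hey2. Meis2 (5.06 ± 0.572 TPM in injured-sire and 4.55 ± 0.407 TPM in uninjured-sire hearts) and Meis3 (4.8 ± 1.17 TPM in injured-sire and 4.57 ± 0.876 TPM in uninjured-sire hearts) were near the level of Meis1. Gata5 was low, at 1.17 ± 0.614 TPM in injured-sire and 0.736 ± 0.472 TPM in uninjured-sire hearts.

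Genes whose deviations over 11 libraries were among the most like those of the other members were Nob1, Usp36 and Foxj2 for Gata4, Alpl, Prpf6 and Gtf2h5 for Gata6, and Lamtor5 and Hfe2 for Nkx2-5. They were Rrp1b, Stk35 and Sf3a3 for Tbx5, Nav3, Gk5 and Asb13 for Tbx20, Elmo2, Gtpbp1 and Arfgap3 for Hey2, Selenow, Lrp4 and Polr3gl for Irx4, and Dhx37, Phf20 and Taf8 for Meis1. Their r values ran from 0.87 to 0.95. Spearman rho was lower for some, at 0.63 for Elmo2 and 0.67 for Arfgap3 with Hey2, and 0.73 for Lrp4 with Irx4.

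Markers of other cell types gave 1 further set of values each. In injured-sire hearts, 4 of 8 fibroblast markers were higher, with Postn at 0.24 and Dcn at -0.15 on the log2 scale (edgeR adjusted p = 0.372 for both). Endocardial markers were higher in 4 of 5, with Npr3 at 0.28 (adjusted p = 0.206) and Cytl1 at 0.10. Kdr, an endothelial receptor, was at -0.09, in a list of which 4 of 8 were higher. Epicardial markers were higher in 5 of 7, with Wt1 at 0.30 and Krt19 at 0.65. Nerve and glial markers were higher in 4 of 6 tested, with S100b at 0.52. All 6 tested lung markers (Ager 0.64, Foxj1 1.49) and all 8 fat markers (Cidea 0.50, Retn 1.18) were higher, and all 6 tested lymphoid markers (Cd79a -0.80 among them) were lower. None of the genes named in this paragraph was called by edgeR.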
